A study of Mus musculus with 12 samples.

Results

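The goblet cell mucus genes are 10 genes that goblet cells of the colon express to build, process and secrete mucus, namely Muc2, Fcgbp, Clca1, Zg16, Tff3, Spink4, Retnlb, Ang4, Agr2 and Spdef. They were taken by symbol from a count table of 18514 genes, and all 10 were found and had enough counts to be tested among 15484 genes. RNA of the colorectal tissue of 12 male C57BL/6 mice, bought at an age of 4 weeks, was sequenced with 1 library per mouse and 3 mice in each of 4 groups. The Ctrl mice were untreated and, like the Model mice, were placed in shallow water without training. The Ctrl_Swim mice swam for up to 90 min per day, a training that had begun 2 months before the carcinogen was given to the treated groups, and received no carcinogen. Model mice received 1 injection of azoxymethane (AOM, a carcinogen that forms colon tumours in mice) at 10 mg/kg followed by 3 cycles of 2% dextran sulfate sodium (DSS, which injures and inflames the colon) in the drinking water. The Model_Swim mice received the same AOM/DSS course and swam on the schedule of the Ctrl_Swim mice. The labels do not say whether a piece of Model tissue was tumour or the mucosa beside it.

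Goblet cells fill their granules with the gel-forming mucin Muc2, which unfolds after release and forms the layered mucus of the colon. Other proteins travel with Muc2 in the granule and bind it, cut it or act on bacteria at its surface, while Agr2 in the endoplasmic reticulum helps to fold Muc2 and the transcription factor Spdef drives the maturation of the cells. Goblet cells sit along the whole crypt, and those of the upper crypt and the crypt base do not express the same proteins.

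Total counts per library lay between 17256953 and 19451055, and the lowest count of any of the 10 genes in any library was 924 (Spdef), so that counting error was small beside the spread between mice. Levels are given in CPM (counts scaled to the size of the library, adjusted by TMM), and comparisons between genes use the deposited FPKM, which are scaled to transcript length. Several libraries stood apart in marker genes of other tissues. The summed CPM of 22 genes of pancreatic acinar cells was 54366 in Model 1 and 26516 in Model 3 but between 201 and 707 in the other 10 libraries, Model 2 (394) included. Hox genes of the distal colon and rectum summed to 28.8 CPM in Model 3 and to between 89.2 and 271 CPM elsewhere. Markers of squamous epithelium summed to 1076 CPM in Model 1, 2061 in Model 2, 897 in Ctrl_Swim 4, 1157 in Model_Swim 2 and 1116 in Model_Swim 3. In the remaining libraries the squamous sum lay between 9.74 and 174 CPM. Of the colon's own markers, 10 genes common to all gut epithelium were present in every library and summed to between 12635 and 18433 CPM, with none of them at 0. Because whole tissue was sequenced, fewer goblet cells and less RNA per goblet cell cannot be told apart for any value here.

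In the Ctrl mice the mucus genes were among the most abundant transcripts of the colon. Together they took between 4.11% and 5.14% of all counts of a Ctrl library. Clca1, a secreted metalloprotease that cleaves Muc2, had the highest level per length at 4933 ± 852 FPKM (SD, n = 3) and stood at rank 2 of all genes. Ang4 (3286 ± 700 FPKM), Spink4 (3082 ± 479 FPKM), Retnlb (2703 ± 527 FPKM) and Agr2 (2645 ± 294 FPKM) followed at ranks 6, 7, 9 and 10, and neighbours among these 4 overlapped in their libraries. Zg16 (1791 ± 407 FPKM), Muc2 (1314 ± 140 FPKM) and Fcgbp (1195 ± 149 FPKM) formed the next overlapping run at ranks 15, 21 and 26. Tff3 (782 ± 69.7 FPKM, rank 65) lay below all of them without overlap, and Spdef, the only transcription factor of the list, lay lowest at 40.2 ± 3.81 FPKM (rank 1792).

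This order was not kept in the other groups. Among Ctrl_Swim mice Agr2 was first of the 10 genes at 1661 ± 124 FPKM, and each gene down to Fcgbp overlapped the next in the order. There Clca1 stood at 937 ± 296 FPKM (rank 53 of all genes), Retnlb at 518 ± 159 FPKM (rank 110), Ang4 at 458 ± 186 FPKM (rank 131) and Fcgbp at 433 ± 89.9 FPKM (rank 149). In both AOM/DSS groups Zg16 was first, at 2572 ± 131 FPKM in Model and 2210 ± 367 FPKM in Model_Swim (rank 5 in each), and Clca1, which overlapped it, was second at 2072 ± 1367 and 1944 ± 934 FPKM. Spdef remained last of the 10 in every group, at 27.1 ± 4.82 FPKM in Ctrl_Swim, 18.5 ± 5.28 FPKM in Model and 26 ± 4.21 FPKM in Model_Swim.

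**Figure D1:**
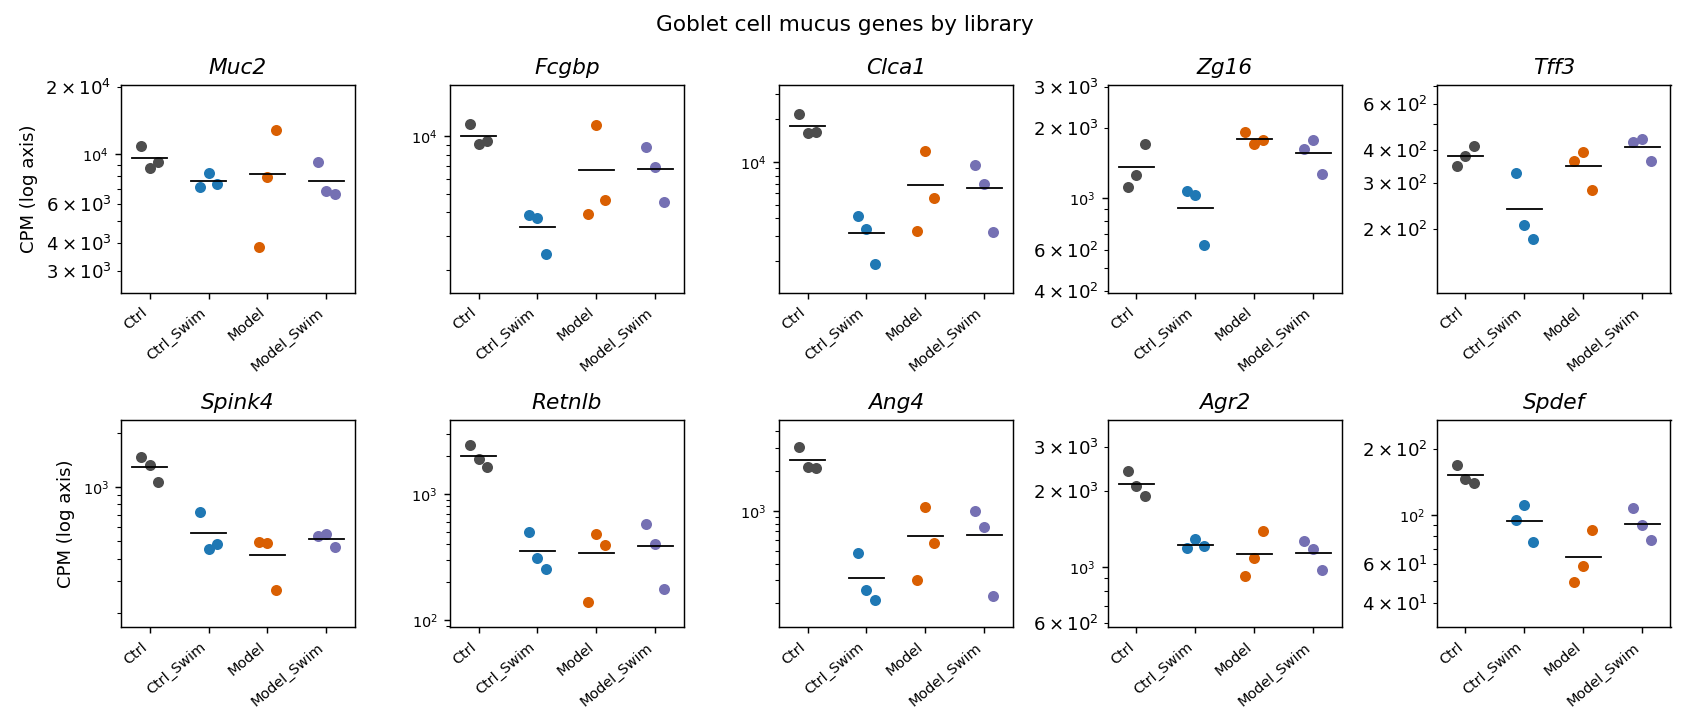
TMM-scaled CPM (log axis) of each of the 10 genes in the 12 libraries, with 1 point per mouse and a line at the group mean; the vertical scale differs between panels. The 3 Ctrl_Swim points lie below the 3 Ctrl points in all 10 panels, and the highest Model point exceeds the lowest by 3.65-fold for Clca1, 3.56-fold for Ang4, 3.47-fold for Retnlb and 3.34-fold for Muc2.

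The first comparison asks what swimming alone changed in untreated mice. Antimicrobial and mucus-processing genes were lower in swimmers: Ang4, Clca1, Retnlb, Spink4 and Agr2 fell by the adjusted p (edgeR quasi-likelihood test, Benjamini-Hochberg over all genes tested), and all of these but Agr2 also passed a cutoff of 2-fold. Lower calls by the adjusted p made up 0.801% of all genes tested, and lower calls by both criteria 0.142%, against 5 and 4 of the 10 mucus genes. The median log2 fold change was -1.01 over the 10 genes and 0.00 over all genes. In all 10 genes the 3 Ctrl_Swim libraries lay below the 3 Ctrl libraries, a pattern that 14.9% of all genes tested showed.

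Ang4, an angiogenin-family ribonuclease with antimicrobial activity, had the largest fall. It was measured at 3053, 2141 and 2091 CPM in Ctrl 1 to 3 and at 477, 253 and 211 CPM in Ctrl_Swim 2 to 4, so that the highest swimmer lay far under the lowest Ctrl mouse. The level was 7.74-fold lower (log2 fold change -2.95, SE 0.58, adjusted p = 0.0442).

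Retnlb, the resistin-like molecule that goblet cells secrete against bacteria, behaved similarly. Its levels were 2447, 1896 and 1655 CPM in Ctrl and 497, 310 and 256 CPM in Ctrl_Swim, again with a wide gap between the groups. This was a 5.65-fold difference (log2 fold change -2.50, SE 0.50, adjusted p = 0.0465).

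Clca1 fell from 21683, 15915 and 16103 CPM in Ctrl to 4133, 3358 and 1930 CPM in Ctrl_Swim. It lost the largest number of transcripts of the 10 genes, with no overlap between the groups, and the change was 5.70-fold (log2 fold change -2.51, SE 0.50, adjusted p = 0.0465). Spink4, a Kazal-type protease inhibitor of goblet cell granules, was measured at 1474, 1317 and 1069 CPM in Ctrl and at 725, 456 and 483 CPM in Ctrl_Swim. Ctrl_Swim 2 was the highest swimmer for Spink4 and still lay below every Ctrl library (log2 fold change -1.21, SE 0.24, adjusted p = 0.0465).

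Agr2, the protein disulfide isomerase needed to fold Muc2, gave 2404, 2093 and 1908 CPM in Ctrl and 1183, 1288 and 1205 CPM in Ctrl_Swim. The swimmers were close to one another, with an SD of 55.0 CPM around 1226 CPM, and the fall of 1.74-fold was below the 2-fold cutoff (log2 fold change -0.80, SE 0.15, adjusted p = 0.0395).

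The other 5 genes did not pass the adjusted p, although their libraries did not overlap. Fcgbp, a large mucus protein that binds Muc2, had 11636, 9165 and 9418 CPM in Ctrl and 3881, 3756 and 2427 CPM in Ctrl_Swim, a log2 fold change of -1.59 (SE 0.38, adjusted p = 0.0831). Muc2 itself had 10899, 8734 and 9228 CPM in Ctrl and 7143, 8277 and 7381 CPM in Ctrl_Swim, so that the highest swimmer was just under the lowest Ctrl library (log2 fold change -0.34, SE 0.32, adjusted p = 0.608). The log2 fold changes of Zg16, a lectin that binds Gram-positive bacteria, Tff3, a trefoil peptide of epithelial repair, and Spdef were -0.57, -0.67 and -0.69, with adjusted p of 0.209, 0.135 and 0.135. In DESeq2 the adjusted p was 0.0138 for Fcgbp, 0.0140 for Tff3 and 0.0172 for Spdef, but 0.629 for Muc2 and 0.0649 for Zg16.

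The adjusted p of the 5 called genes lay close to 0.05 and depended on single libraries, while their direction did not. Without any one of Ctrl 1, Ctrl 2, Ctrl 3, Ctrl_Swim 2, Ctrl_Swim 3, Ctrl_Swim 4, Model_Swim 1 or Model_Swim 2, the number of genes past both criteria was 0, and between 0 and 9 of all genes passed. It was 3 without Model_Swim 3, in which Spink4 was lost, 4 without Model 3, and 5 without Model 1 or Model 2, in which Fcgbp was added, and these 4 fits called between 14 and 38 of all genes. The highest adjusted p over these 12 fits was 0.179 for Ang4, 0.183 for Clca1, 0.181 for Retnlb, 0.213 for Spink4 and 0.176 for Agr2. With limma on log2 FPKM, or with the replicate number as a block, the count was also 0. Those fits called few genes of any kind, between 4 and 9 of all genes with limma and 1 with the block. Every one of the 10 genes stayed lower in Ctrl_Swim in all alternatives run, with Ang4 between -3.37 and -2.59 on the log2 scale.

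**Figure D2:**
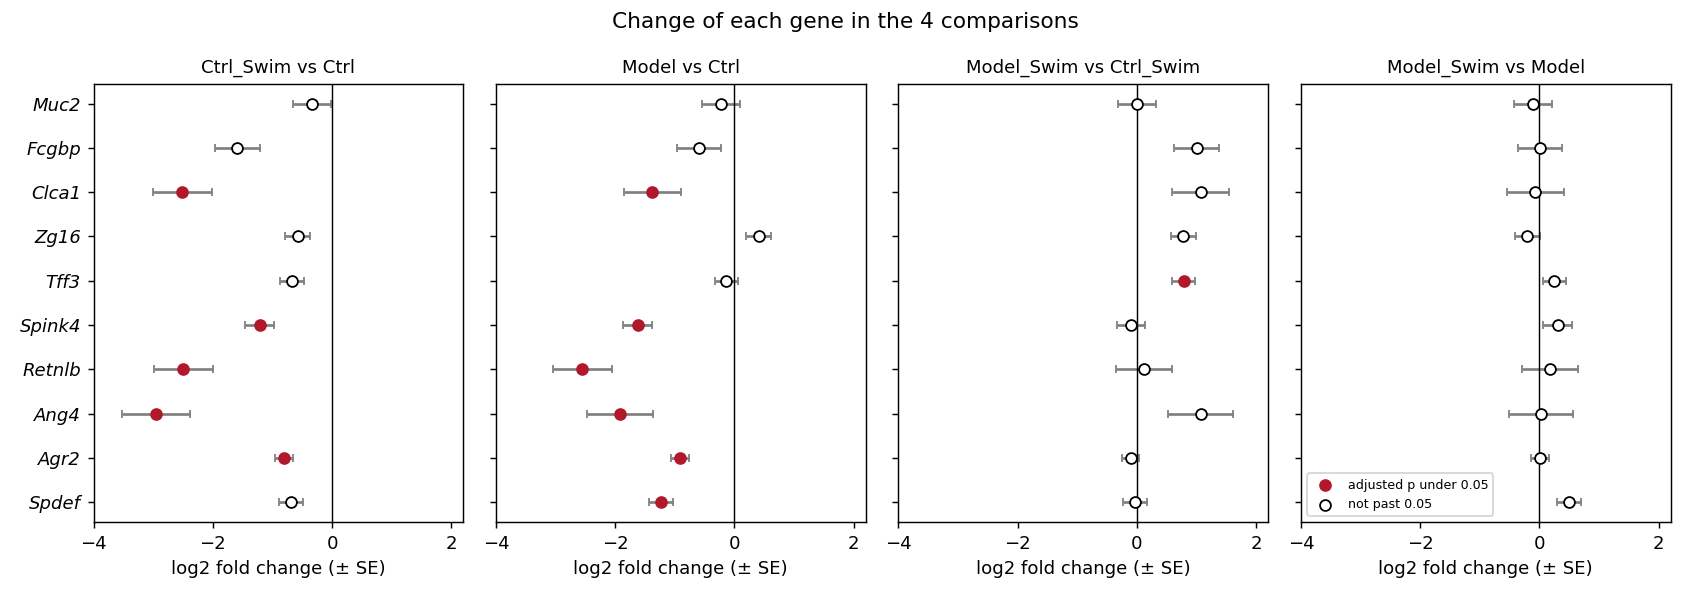
Log2 fold change from edgeR, with an SE derived from the F statistic, for each of the 10 genes (vertical) in 4 comparisons (panels). Filled points mark an adjusted p under 0.05. All 10 points lie below 0 in Ctrl_Swim vs Ctrl, 9 of 10 in Model vs Ctrl, and the points of Model_Swim vs Model lie between -0.21 and 0.50.

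Promoters are shown for Ang4 and Agr2, which passed the adjusted p in swimmers with falls of very different size, and for Muc2, which did not pass. Muc2 also lay lower in every swimmer, and its change was not tested against those of Ang4 and Agr2. RefSeq promoter windows of GRCm38.p6, reaching from 250 bases before to 50 after the start site, were at hand for 5 of the 10 genes, Muc2, Fcgbp, Agr2, Ang4 and Spdef, and the table had no entry for Clca1, Zg16, Tff3, Spink4 and Retnlb. The 250 bases before the start site are printed 5′ to 3′ on the strand of the gene, for Ang4 from the minus strand of chr14:51773591-51773840, for Agr2 from the plus strand of chr12:35992675-35992924 and for Muc2 from the plus strand of chr7:141690090-141690339. Start sites and positions are those of RefSeq. For Agr2 that start site lies after the start of the gene in GENCODE (35992907), so the last printed Agr2 bases fall within the GENCODE gene. Capitals mark motif matches.
Ang4: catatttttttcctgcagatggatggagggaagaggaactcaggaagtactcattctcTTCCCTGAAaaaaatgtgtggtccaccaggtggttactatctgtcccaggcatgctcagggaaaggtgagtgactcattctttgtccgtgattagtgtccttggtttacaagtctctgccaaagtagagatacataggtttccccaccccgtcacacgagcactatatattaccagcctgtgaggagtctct
Agr2: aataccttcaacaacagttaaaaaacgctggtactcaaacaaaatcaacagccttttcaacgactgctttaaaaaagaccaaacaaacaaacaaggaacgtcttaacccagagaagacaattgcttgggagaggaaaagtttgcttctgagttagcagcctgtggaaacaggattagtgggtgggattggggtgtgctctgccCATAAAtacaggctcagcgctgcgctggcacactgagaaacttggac
Muc2: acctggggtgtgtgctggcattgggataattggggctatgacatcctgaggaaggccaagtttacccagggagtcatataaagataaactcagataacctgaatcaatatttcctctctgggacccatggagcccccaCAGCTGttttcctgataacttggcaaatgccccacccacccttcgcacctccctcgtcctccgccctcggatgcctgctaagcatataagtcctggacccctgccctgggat

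On both strands of the whole windows, 6 motifs were searched: the STAT6-type palindrome, the STAT3-type palindrome TTCNNNGAA with a spacer shorter by 1 base, the forkhead core TGTTTAC, the CDX motif TTTATG, the E-box CAGCTG and the ETS motif CCGGAT. The capitals are a match to TTCNNNGAA that starts at position -192 in Ang4, a match to the CDX motif on the opposite strand at -47 in Agr2, and an E-box at -112 in Muc2. Of 32851 promoter windows in the table, 8.30% held TTCNNNGAA, 11.9% the CDX motif and 16.3% the E-box, so that each match is of a common kind. Fcgbp also held the E-box, at -208, and Spdef the CDX motif, at -191. None of the 5 windows held the STAT6-type palindrome, TGTTTAC or CCGGAT, which says only that these letters are not in these windows.

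The mucus genes were also set against the gut epithelium of the same library. The pan-epithelium list summed to between 16583 and 18433 CPM in Ctrl and between 13494 and 17343 CPM in Ctrl_Swim, which overlap, and 0 of its 10 genes passed the adjusted p. Relative to the mean log2 level of that list, 7 genes were lower in Ctrl_Swim without overlap, by 2.78 (Ang4), 2.32 (Clca1), 2.29 (Retnlb), 1.36 (Fcgbp), 0.99 (Spink4), 0.55 (Agr2) and 0.47 (Tff3) on the log2 scale, and Spdef, Zg16 and Muc2 overlapped. On that scale 1.38% of all genes tested were lower without overlap, against 14.9% on the plain scale. These are descriptions without a test. With that list's mean as a covariate in edgeR the log2 fold changes were -2.59 for Ang4, -2.27 for Clca1 and -2.24 for Retnlb, but standard errors were wider (0.87, 0.79 and 0.76) and 0 of all genes passed. Other lists moved as well, where lower calls by the adjusted p made up 0.801% of all genes tested. Markers of deep crypt secretory cells (Reg4, Kit, Agr3 and Spink1) summed to between 1657 and 2191 CPM in Ctrl and between 684 and 1188 CPM in Ctrl_Swim. Most of that sum in Ctrl was Reg4 alone, and 0 of the 4 passed the test. Paneth cell markers overlapped (185 to 562 against 64.5 to 206 CPM, 1 of 6 lower). Squamous epithelium markers lay between 13.4 and 20.04 CPM in Ctrl and between 9.74 and 897 CPM in Ctrl_Swim, and proliferation markers between 851 and 997 against 589 and 837 CPM (1 of 8 lower). Acinar markers, low in both groups, lay between 495 and 707 CPM in Ctrl and between 205 and 347 CPM in Ctrl_Swim without overlap, with a median log2 fold change of -1.83 and 1 of 19 lower. The part of any of these in the result was not tested.

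The levels of several genes relative to Muc2 also differed between the groups, which is given as a description. For 1 unit of Muc2, Ctrl libraries held 3.74 ± 0.25 units of Clca1 and Ctrl_Swim libraries 0.839 ± 0.321 (ratios of FPKM in the same library, mean ± SD, n = 3). The ratio of Ang4 to Muc2 was 2.49 ± 0.27 in Ctrl and 0.416 ± 0.213 in Ctrl_Swim, that of Retnlb 2.05 ± 0.24 and 0.468 ± 0.193, and that of Fcgbp 0.909 ± 0.021 and 0.384 ± 0.094. None of these 4 ratios overlapped between Ctrl and Ctrl_Swim. The ratio of Clca1 to Fcgbp went from between 3.97 and 4.33 in Ctrl to between 1.85 and 2.47 in Ctrl_Swim. Summed over the 10 genes, the level was 47329 ± 6846 CPM in Ctrl and 17785 ± 2615 CPM in Ctrl_Swim.

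**Figure D3:**
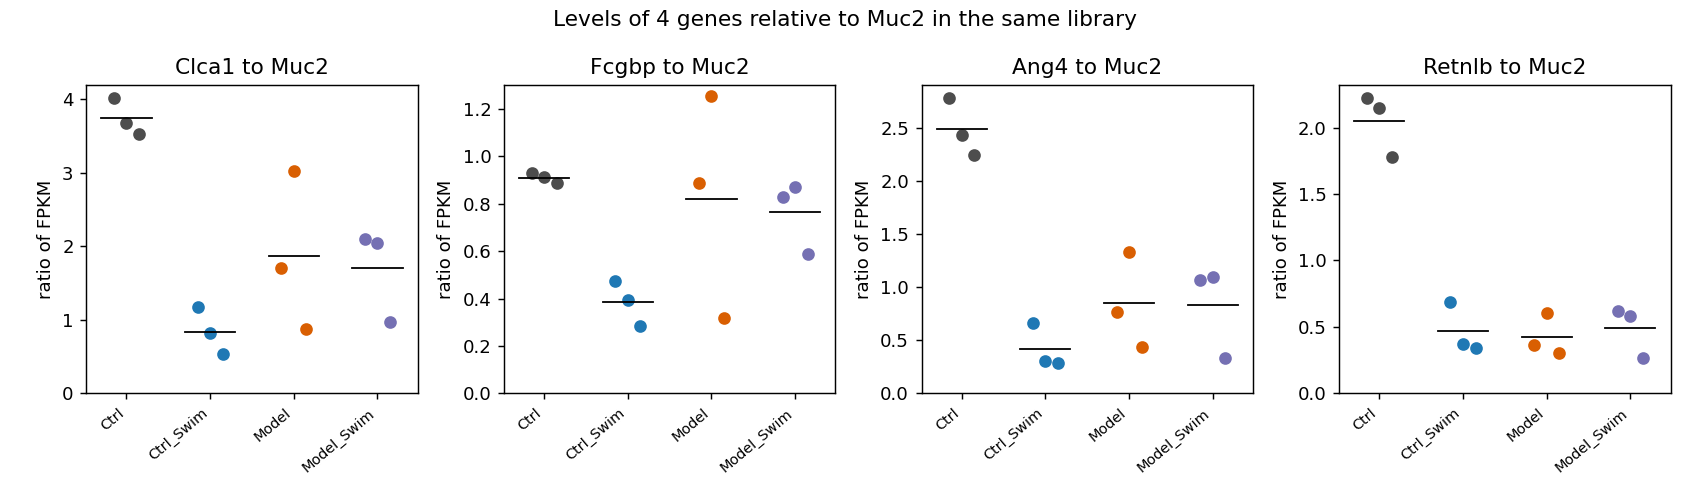
Ratio of the FPKM of Clca1, Fcgbp, Ang4 and Retnlb to that of Muc2 in each of the 12 libraries (linear axes from 0, line at the group mean). All 3 Ctrl_Swim points lie below all 3 Ctrl points in each panel, whereas the Model points for Fcgbp reach from 0.316 to 1.25, on both sides of the Ctrl points.

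The second comparison asks what the AOM/DSS course changed in mice that did not swim. It shares the Ctrl mice with the first, so the values are given side by side and not as independent evidence. The transcription factor Spdef, the folding enzyme Agr2 and the secreted Retnlb, Spink4, Ang4 and Clca1 fell, 6 of 10 genes by the adjusted p and 5 (all but Agr2) with the 2-fold cutoff, whereas Muc2, Fcgbp, Tff3 and Zg16 did not pass. Lower calls made up 16.2% of all genes tested by the adjusted p and 1.22% by both criteria. The median log2 fold change of the 10 genes was -1.07, against 0.01 over all genes. The 6 called genes were also those whose Model libraries all lay below the Ctrl libraries, as in 23.2% of all genes tested.

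Spdef was measured at 169, 146 and 139 CPM in Ctrl and at 49.5, 58.5 and 85.8 CPM in Model 1 to 3. The 3 Model values were all under the lowest Ctrl value, and the fall was 2.34-fold (log2 fold change -1.23, SE 0.20, adjusted p = 0.00191). Agr2 was at 919, 1084 and 1382 CPM in Model, with Model 3 highest, and thus below the Ctrl range of 1908 to 2404 CPM (log2 fold change -0.92, SE 0.15, adjusted p = 0.00172).

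Retnlb had 140, 486 and 397 CPM in the Model mice, all far below the Ctrl mice, and its fall of 5.86-fold was the largest of the 10 (log2 fold change -2.55, SE 0.50, adjusted p = 0.00388). Spink4 was at 496, 493 and 267 CPM, with Model 3 lowest (log2 fold change -1.62, SE 0.24, adjusted p = 0.00125). Retnlb, Spink4, Agr2 and Spdef kept an adjusted p under 0.05 in each of the 12 fits that left out 1 library.

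Clca1 and Ang4 were more variable. Clca1 had 3248, 11863 and 5581 CPM in Model 1, 2 and 3 (log2 fold change -1.38, SE 0.48, adjusted p = 0.0483), and Ang4 had 298, 1062 and 567 CPM (log2 fold change -1.92, SE 0.56, adjusted p = 0.0230). Model 2, without the acinar signal but with the highest squamous sum of all libraries (2061 CPM), was the highest Model library for both. Ang4 lost its call without Ctrl 1 (adjusted p = 0.0706) or Model 1 (adjusted p = 0.0590). Clca1 kept its call only without Ctrl_Swim 4, Model 2 or Model_Swim 3, and its adjusted p reached 0.131 without Ctrl 1. The count past both criteria was 3 without Ctrl 1 or Model 1 (879 and 943 of all genes) and 6 without Model 2 (919 of all genes), when Fcgbp (log2 fold change -1.21, adjusted p = 0.0141) was added.

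Muc2 and Fcgbp did not pass the test and spread apart among the Model mice. Muc2 had 3836, 7920 and 12815 CPM in Model 1 to 3, a 3.34-fold range within the group that contained the lowest and the highest of all 12 libraries. The highest Ctrl library exceeded the lowest by 1.25-fold. The log2 fold change was -0.23 (SE 0.32, adjusted p = 0.605), and it ran from -0.70 without Model 3 (adjusted p = 0.0468) to 0.12 without Model 1 (adjusted p = 0.674). Fcgbp had 3922, 11417 and 4666 CPM, with Model 2 inside the Ctrl range and the others far below it (log2 fold change -0.60, SE 0.37, adjusted p = 0.238). Muc2 and Fcgbp thus did not rank the 3 Model mice alike.

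Zg16 alone lay higher in Model, at 1913, 1709 and 1768 CPM against 1110, 1252 and 1699 CPM in Ctrl. The 3 Model libraries were just above the highest Ctrl library, which 21.0% of all genes tested also showed, and the difference did not pass (log2 fold change 0.41, SE 0.21, adjusted p = 0.153). Zg16 is named for zymogen granules and is also expressed in the pancreas. It was at 1913 CPM in Model 1, with an acinar sum of 54366 CPM, and at 1709 CPM in Model 2, with an acinar sum of 394 CPM, and the part of acinar RNA in its level was not tested. Tff3 had 364, 392 and 282 CPM in Model and 349, 380 and 413 CPM in Ctrl (log2 fold change -0.14, SE 0.20, adjusted p = 0.617).

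Several lists of other cells differed between Model and Ctrl beside these genes. Over all genes tested 16.5% were higher and 16.2% lower by the adjusted p, so small counts such as 2 of 8 lie not far from the background. Of the pan-epithelium list 8 of 10 genes were lower (12635 to 13236 CPM summed in Model, 16583 to 18433 CPM in Ctrl). Absorptive colonocyte markers, of which 3 of 10 were lower and 1 higher, summed to 2299, 3568 and 7548 CPM in Model 1 to 3 and to between 9498 and 10126 CPM in Ctrl. Macrophage markers were higher in 8 of 9 (458 to 499 against 279 to 305 CPM), B cell markers in 9 of 10 (175 to 207 against 43.0 to 90.5 CPM), squamous markers in 11 of 14 (28.5 to 2061 against 13.4 to 20.04 CPM), acinar markers in 17 of 19 tested and neutrophil markers in 4 of 7, although the neutrophil sums overlapped (21.4 to 136 against 11.2 to 22.6 CPM). The sum of deep crypt secretory markers, in Ctrl mostly Reg4, was 237 to 545 CPM in Model against 1657 to 2191 CPM in Ctrl. Of the 4 genes 1 was lower (Reg4) and 1 higher. Of the proliferation markers 2 of 8 were lower, and their sums overlapped (807 to 868 against 851 to 997 CPM). Relative to the pan-epithelium list, Retnlb, Ang4, Spink4, Spdef and Agr2 were lower in Model without overlap, by 2.32, 1.69, 1.27, 0.87 and 0.54 on the log2 scale, against 2.54% of all genes tested. Zg16 was higher by 0.82 without overlap, as were 55.6% of all genes on that scale, and Muc2 differed by 0.00. With that list as a covariate 0 of all genes passed, the log2 fold changes being -2.06 for Retnlb, -1.20 for Spdef, -1.13 for Agr2 and -1.05 for Spink4. With the acinar list as a covariate 2 genes passed both criteria, Spink4 and Spdef, and 797 of all genes did. Without Model 1 and Model 3, which leaves Model 2 as the lone Model library and assumes that it varies like the other groups, 3 passed, namely Spink4, Spdef and Retnlb (1291 of all genes), and Ang4 had a log2 fold change of -1.21 (adjusted p = 0.204). The part of the acinar and other foreign transcripts in the result was not tested beyond these fits.

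**Figure D4:**
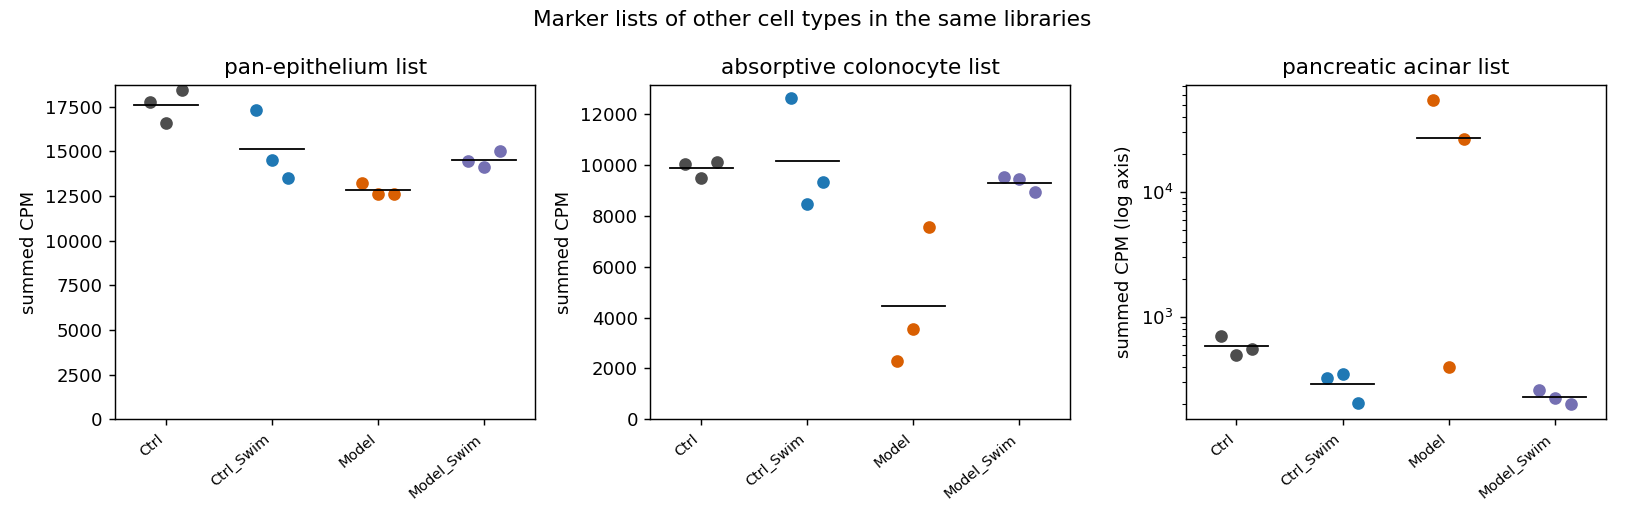
Summed CPM of marker lists for all gut epithelium, absorptive colonocytes (both linear axes from 0) and pancreatic acinar cells (log axis) in the 12 libraries, with a line at the group mean. Epithelial sums are lowest in Model, colonocyte sums in Model range from 2299 to 7548, and 2 Model libraries hold acinar sums of 26516 and 54366.

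The third comparison asks what swimming changed in mice that received AOM/DSS. The mucus genes gave no call. Among the 10 genes 0 passed in edgeR or in DESeq2. An unadjusted p under 0.05 (edgeR) was found for 1 of 10, against 13.6% of all genes tested. The median log2 fold change was 0.02 against -0.01 over all genes. Over all genes edgeR called 0.0710%, and DESeq2 called 115 of all genes by both criteria. All 10 genes overlapped between the groups, whereas 16.9% of all genes did not.

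The one with an unadjusted p under 0.05 was Spdef, at 107, 89.7 and 76.9 CPM in Model_Swim 1 to 3 and 49.5, 58.5 and 85.8 CPM in Model. Model 3 lay within the Model_Swim range, and the log2 fold change was 0.50 (SE 0.20, unadjusted p = 0.0311, adjusted p = 0.321). Without Model 3 it was 0.77 with an adjusted p of 0.0291. That fit called 327 of all genes by both criteria, against 11 with all libraries.

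Retnlb remained low in Model_Swim, at 575, 404 and 178 CPM, as in Model (log2 fold change 0.18, SE 0.47, adjusted p = 0.903). Agr2 was at 1269, 1172 and 972 CPM (log2 fold change 0.01, SE 0.15, adjusted p = 0.986). The intervals differ in width: an SE of 0.15 for Agr2 leaves room for small differences only, whereas SEs of 0.47 for Clca1 and 0.54 for Ang4 leave room for differences near 2-fold in either direction. Clca1 had 9573, 6950 and 3220 CPM and Ang4 991, 755 and 226 CPM in Model_Swim, with Model_Swim 3 lowest for both, and their log2 fold changes were -0.07 and 0.03. Over the alternative fits these ran from -1.07 to 0.57 for Clca1 and from -0.96 to 0.60 for Ang4. Muc2, at 9216, 6859 and 6659 CPM, was less spread than in Model (log2 fold change -0.11, SE 0.32). Absorptive colonocyte markers, between 8927 and 9508 CPM summed in Model_Swim, lay above the 3 Model libraries and overlapped Ctrl_Swim. Of these 10 markers, however, 0 passed the adjusted p in either direction between the AOM/DSS groups, and their log2 fold changes had a median at 0.24. The summed mucus genes of Model_Swim and Model overlapped (33129, 25879 and 17947 CPM in Model_Swim and 15184, 36484 and 27811 CPM in Model). Neither sum was tested.

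**Figure D5:**
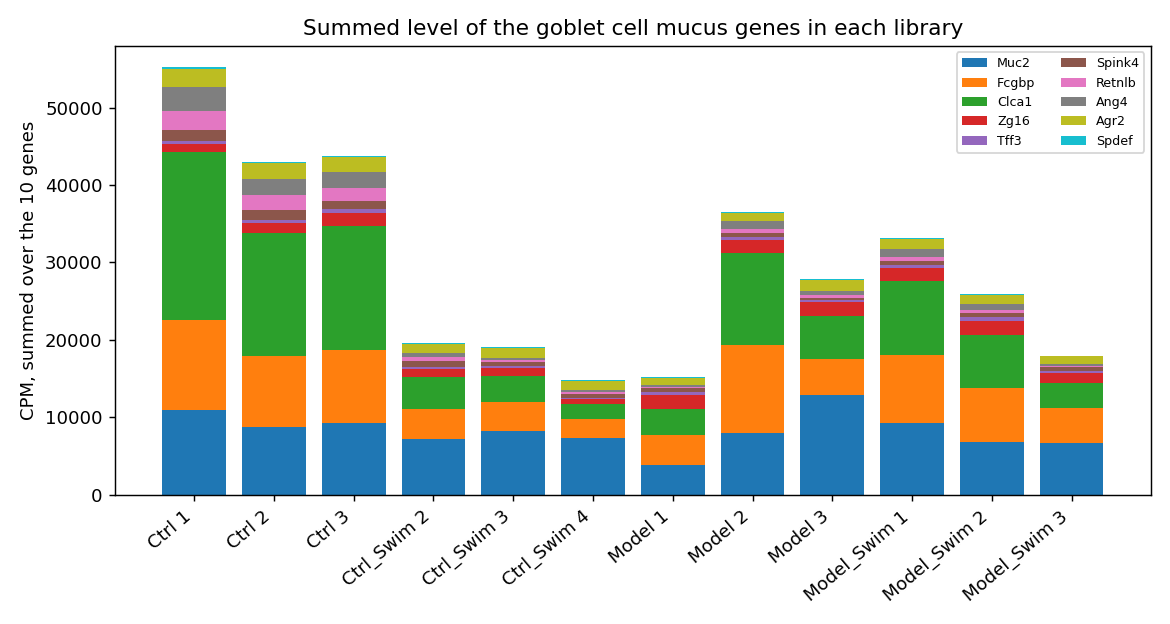
TMM-scaled CPM summed over the 10 mucus genes in each of the 12 libraries (bars from 0, stacked by gene). Muc2, Fcgbp and Clca1 make up between 72.5% and 85.5% of each bar, and the sums run from 14779 in Ctrl_Swim 4 to 55224 in Ctrl 1.

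The fourth comparison asks what AOM/DSS changed in mice that swam, and it shares the Ctrl_Swim mice with the first comparison and the Model_Swim mice with the third. Tff3 rose, and no gene fell. Tff3 had 326, 207 and 183 CPM in Ctrl_Swim and 430, 442 and 361 CPM in Model_Swim, a 1.72-fold rise without overlap (log2 fold change 0.78, SE 0.20, adjusted p = 0.0451). Higher calls by the adjusted p made up 3.49% of all genes tested, so 1 of 10 is a share not far above the background, and by both criteria 0 of 10 genes passed (1.00% of all genes in either direction). Zg16 had a log2 fold change of 0.78 (SE 0.21, adjusted p = 0.0593), with 1073, 1027 and 627 CPM in Ctrl_Swim and 1628, 1779 and 1269 CPM in Model_Swim. Its libraries did not overlap, nor did those of Fcgbp (log2 fold change 1.01, SE 0.38, adjusted p = 0.145), so that 3 genes lay higher without overlap, as did 15.9% of all genes. The Tff3 call was lost without any one of Ctrl 1, Ctrl 2, Ctrl 3, Ctrl_Swim 3, Ctrl_Swim 4, Model_Swim 1, Model_Swim 2 or Model_Swim 3, with adjusted p up to 0.135, while Zg16 gained one without Model 3 (adjusted p = 0.0458) and Fcgbp without Model 2 (log2 fold change 1.00, adjusted p = 0.0425). By both criteria, 274 of all genes passed without Model 3 and 161 without Model 2, against 155 with all libraries.

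Of the 6 genes that fell in Model, 0 passed between the swimming groups. Retnlb had a log2 fold change of 0.12 (SE 0.47), Agr2 of -0.11 (SE 0.15), Spink4 of -0.10 (SE 0.24) and Spdef of -0.04 (SE 0.20), and Muc2, which had not passed in Model, of -0.00 (SE 0.32), with adjusted p between 0.723 and 0.995. Clca1 and Ang4 lay higher in Model_Swim, both at 1.07 (SE 0.48 and 0.54), with overlapping libraries and adjusted p of 0.217 and 0.277.

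Whether swimming acted differently with and without AOM/DSS was tested as an interaction, the log2 fold change of Model_Swim vs Model minus that of Ctrl_Swim vs Ctrl. It was above 0 for all 10 genes, from 0.23 (Muc2) and 0.37 (Zg16) to 2.67 (SE 0.67, Retnlb) and 2.99 (SE 0.78, Ang4), with a median of 1.36. The Ctrl_Swim vs Ctrl values, all below 0, enter it with their sign turned, while those of Model_Swim vs Model had a median of 0.02. The common direction is therefore not evidence independent of the first comparison. With edgeR 0 of 10 genes passed, and the lowest adjusted p was 0.115 for Spink4 (log2 value 1.52, SE 0.34), Retnlb and Spdef (log2 value 1.19, SE 0.29). At an unadjusted p under 0.05 there were 8 genes, all but Muc2 and Zg16, against 19.03% of all genes tested, while 0% of all genes were called by the adjusted p. DESeq2 called 5 of the 10 by both criteria, Spdef (adjusted p = 0.00244), Spink4 (0.00504), Retnlb (0.00918), Ang4 (0.0137) and Clca1 (0.0310), all above 0, against 0.323% of all genes that DESeq2 called in that direction. In edgeR, 2 genes passed both criteria without Model 3 (Spdef, adjusted p = 0.00923, and Spink4, adjusted p = 0.0225), where 1.08% of all genes passed above 0. It was also 2 without Ctrl_Swim 2 (Tff3, adjusted p = 0.0390, and Spink4, adjusted p = 0.0470), against 0.121% of all genes. Without Model 2 it was 1 gene (Fcgbp, adjusted p = 0.0436), against 0.0574% of all genes. In either direction these 3 fits called 248, 62 and 38 of all genes.

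Beyond the 10 genes, 122 genes of the goblet cell's lineage, glycosylation, secretion and neighbouring families had been listed, of which 117 were in the table and 107 were tested. In Model vs Ctrl 23 of them were higher and 30 lower by the adjusted p, against 16.5% and 16.2% of all genes tested. In Ctrl_Swim vs Ctrl 0 were higher and 11 lower (all genes 0.168% and 0.801%), in Model_Swim vs Ctrl_Swim 14 were higher and 2 lower (3.49% and 1.69%), and in Model_Swim vs Model and the interaction 0 passed in either direction. These shares of all genes are also the background for the counts by role that follow. The Ctrl_Swim vs Ctrl calls of this wider list were not followed through the alternative fits. Over all genes, those past both criteria in that comparison numbered 26, but 0 without Ctrl 1 and 1 with the replicate block.

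The transcription factors of the secretory lineage were lower in 4 of 9 in Model vs Ctrl and higher in 0. Atoh1, which commits cells to the secretory fate, went from 82.0 ± 4.83 CPM in Ctrl to 54.9 ± 9.91 CPM in Model (log2 fold change -0.58, SE 0.19, adjusted p = 0.0343), and Creb3l4 changed by -0.61 (SE 0.15, adjusted p = 0.0122). Of the genes of Notch, the pathway that holds cells out of the secretory fate, all 5 ligands and receptors were higher, with Notch2 at 0.73 (SE 0.09, adjusted p = 0.000604) and the ligand Dll1 at 0.67 (SE 0.13, adjusted p = 0.00386). Neither of the 2 target genes passed, with Hes1 at -0.22 (adjusted p = 0.265) and Hey1 at 0.52 (adjusted p = 0.110). In Ctrl_Swim vs Ctrl the forkhead factor Foxa3 was the only 1 of the 9 that fell (log2 fold change -0.64, adjusted p = 0.0421), and 0 of 7 Notch genes passed.

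Genes of mucin O-glycosylation were lower in 8 of 18 and higher in 1 of 18 in Model vs Ctrl. The sulfotransferase gene Gal3st2 fell (log2 fold change -0.79, SE 0.24, adjusted p = 0.0255) and Gcnt1, which branches O-glycans, rose (log2 fold change 0.81, SE 0.18, adjusted p = 0.00815). In Ctrl_Swim vs Ctrl 0 of 18 passed. Over all genes tested 16.2% were lower and 16.5% higher in Model by the adjusted p, and 0.801% lower in Ctrl_Swim. Folding and stress genes of the endoplasmic reticulum were lower in 3 of 10 and higher in 1 of 10 in Model, not far from those shares. Among them were Pdia5 (log2 fold change -0.52) and Manf (-0.41). In Ctrl_Swim 5 of 10 were lower. The 5 were Hspa5 (-0.52), Sdf2l1 (-0.86), Hyou1 (-0.50), Manf (-0.61) and Creld2 (-0.65), named after their values were seen, with adjusted p between 0.0175 and 0.0465. These chaperones and their helpers are not specific to goblet cells.

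Granule and secretion genes were lower in 8 of 18 and higher in 1 of 18 in Model, and lower in 4 of 18 in Ctrl_Swim. Capn9, a calpain of the digestive tract, fell in both, to 37.6 ± 11.8 CPM in Model and 27.1 ± 7.03 CPM in Ctrl_Swim from 74.1 ± 9.15 CPM in Ctrl (log2 fold changes -0.98, adjusted p = 0.0108, and -1.45, adjusted p = 0.0297). Cftr, the channel for chloride and for the bicarbonate that lets mucus unfold, fell in Model (log2 fold change -0.81, SE 0.11, adjusted p = 0.000841) and was level in Ctrl_Swim (0.01, SE 0.11). The small GTPases of granule transport Rab27a, Rab27b and Rab3d, named after their values were seen, fell in Ctrl_Swim by 0.79, 0.61 and 0.46 on the log2 scale. Among inner-layer and crosslinking genes 4 of 9 were lower and 2 higher in Model. Reg4, a lectin of deep crypt secretory cells, had 1733 ± 282 CPM in Ctrl and 219 ± 129 CPM in Model (log2 fold change -2.98, SE 0.45, adjusted p = 0.00126). It made up most of the deep crypt secretory sum in Ctrl (mean 1878 CPM), so Reg4 and that sum are not separate results. The lectin Itln1 was lower in both Model (-2.03, adjusted p = 0.0106) and Ctrl_Swim (-2.61, adjusted p = 0.0431).

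Membrane-bound and other mucins went both ways in Model, 3 of 8 higher and 1 lower. Muc1 rose from 2.49 ± 0.32 to 16.8 ± 9.64 CPM (log2 fold change 2.75, SE 0.41, adjusted p = 0.00117), and Muc16 fell from 28.2 ± 8.66 to 2.35 ± 1.45 CPM (log2 fold change -3.59, SE 0.53, adjusted p = 0.00119). Of the other trefoil, resistin-like, Clca-family, Spink-family and angiogenin genes 3 of 13 were higher and 2 lower, near the shares of all genes (16.5% and 16.2%). Clca4b rose (log2 fold change 2.76, SE 0.76, adjusted p = 0.0189). Tff2, a trefoil peptide of the stomach and pancreas, was called higher (log2 fold change 7.96, adjusted p = 0.00454) from 104 CPM in Model 1 and 52.0 CPM in Model 3, the libraries with the acinar signal, while Model 2 held 0.22 CPM and the Ctrl libraries between 0 and 0.33 CPM. Cytokines and receptors that act on goblet cells were higher in 7 of 15 and lower in 0, with Areg at 1.27 (SE 0.32, adjusted p = 0.0125) and Il1rl1 at 1.08 (SE 0.30, adjusted p = 0.0202). In Ctrl_Swim vs Ctrl 0 genes of these last 3 groups passed.

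Across the 12 libraries the mucus genes did not form a single block. Correlations of log2 CPM are given as a description, since the 12 points share their groups and libraries. Clca1 and Ang4 were the closest pair (Pearson r = 0.98), followed by Fcgbp and Clca1 (r = 0.96) and by Retnlb and Agr2 (r = 0.94). The closest member to Muc2 was Agr2 (r = 0.66), and Zg16 was close only to Tff3 (r = 0.76) and ran at -0.21 with Spdef. Among 13998 other genes with a mean of at least 1 CPM, the closest to Clca1 and to Ang4 was Capn9 (r = 0.98 and 0.97), with Fam221a next (0.96 and 0.97). Fcgbp was closest to Rab27a (0.97) and Tmem39a (0.96), Retnlb to Scin (0.98) and Gpsm2 (0.96), and Agr2 to Kdelr2 and Tars (both 0.97). Spdef was closest to Galnt5 (0.98) and Azin1 (0.97), Spink4 to Mpi (0.96) and Pgam1 (0.95), and Muc2 to Dclk1 (0.94) and Ern2 (0.91). Zg16 was closest to Fem1c (0.93) and Myo1e (0.92), and Tff3 to Capns1 (0.96) and Ocln (0.92).

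In the GENCODE annotation of GRCm38.p6, Muc2 lies on chromosome 7 (141690340 to 141754693, plus strand), with Fcgbp (28071236 to 28120862, plus strand) and Zg16 (127050156 to 127087328, minus strand) on the same chromosome. Tff3 (31125306 to 31129646) and Spdef (27714352 to 27728955) are both on the minus strand of chromosome 17. Clca1 lies on chromosome 3 (145003817 to 145032776, minus strand), Spink4 on 4 (40920052 to 40931395, plus strand), Agr2 on 12 (35992907 to 36004087, plus strand), Ang4 on 14 (51763878 to 51773590, minus strand) and Retnlb on 16 (48816856 to 48818892, plus strand). The antisense lincRNA Gm44939 overlaps Zg16 and is not in the table, and since the strand setting of the counting is not given in the sources used here, reads of both cannot be told apart. Ang4, Retnlb and Clca1 have close relatives in the mouse genome, among which the authors' counting could have split reads.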

How the data were processed

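RNA of colorectal tissue was measured in 12 mice, 3 in each group, with 1 library per mouse, so that p-values measure the spread between mice. Groups and numbers were taken from the sample titles. The authors made TruSeq Stranded mRNA libraries, used Trimmomatic for trimming and HISAT2 for alignment to GRCm38.p6, and took counts per gene from HTSeq-count. They deposited raw counts, and FPKM from Cufflinks, for 18514 genes. Tool versions and strand setting are not given in the sources used here.

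Counts were analysed here in R 4.3.3 with edgeR 4.0.16 (TMM, filterByExpr with a minimum count of 10, quasi-likelihood F test, 15484 genes, all 4 groups in one fit) and adjusted by Benjamini-Hochberg over all genes in each comparison. Calls needed an adjusted p under 0.05, with or without a fold over 2 or under 0.5. The SE of an edgeR value is its absolute log2 fold change divided by the square root of the F statistic. The code was tested on simulated counts. Alternatives used DESeq2 1.42.0, limma 3.58.1 on log2(FPKM + 1) and log2(FPKM + 0.1), covariates, other filters and scaling, the replicate block, and fits without single libraries. A count of 3 is 0.154 to 0.174 CPM, which covers counting error only.

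The genes and lists were chosen with earlier results of these data known. All 10 mucus genes are named. Of each role in the wider list, up to 2 genes are named that had the largest called change in Model vs Ctrl at a mean of at least 1 CPM, and for each mucus gene the 2 genes of highest correlation.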

Additional observations from a re-analysis of the deposited data

How the results depend on the processing

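Over 1190 alternative values of single genes, 992 kept direction and side of the threshold, 104 lost a call, 36 gained one and 58 changed sign. In Ctrl_Swim vs Ctrl no sign changed, but the count of mucus genes past both criteria fell to 0 in several fits. It was 0 with limma in all 3 forms (4 to 9 of all genes). It was also 0 with the pan-epithelium covariate (0 of all genes) and the replicate block (1 of all genes). Without single libraries it ran from 0 to 5 (0 to 38 of all genes). In Model vs Ctrl it was 2 with the acinar covariate (797 of all genes) and 0 with the pan-epithelium covariate (0 of all genes). Without single libraries it ran from 3 to 6 there (718 to 1679 of all genes). In Model_Swim vs Ctrl_Swim it was 1 by the adjusted p alone (802 of all genes) and from 0 to 1 without single libraries (46 to 274 of all genes). In the interaction it was 5 with DESeq2 (220 of all genes in either direction) and from 0 to 2 without single libraries (0 to 248 of all genes).

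Deviations of same-numbered mice from their group means correlated between -0.12 and 0.05 in Model vs Ctrl, -0.26 and 0.41 in Model_Swim vs Model, -0.08 and 0.02 in Ctrl_Swim vs Ctrl, and -0.03 and 0.22 in Model_Swim vs Ctrl_Swim. With so few same-numbered pairs in each comparison, these values cannot show whether replicate numbers pair the mice. The replicate block left 5 mucus genes called in Model vs Ctrl (1109 of all genes) and 0 in Ctrl_Swim vs Ctrl (1 of all genes). Ctrl_Swim 4 has no partner of its number in Ctrl.

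Signs changed mostly where the main value was near 0, although some of the alternative values lay far from 0. In Model vs Ctrl the values of changed sign were Fcgbp at 0.14 (acinar covariate) and 0.16 (without Model 1 and 3), and Tff3 at 0.030 (acinar covariate), 0.67 (pan-epithelium covariate) and 0.024 (without Model 1 and 3). In Model_Swim vs Model they were Muc2 at 0.0070 (pan-epithelium) and 0.024 (limma), Fcgbp at -0.93 (acinar), -0.048 (pan-epithelium) and -0.75 (without Model 1 and 3), Tff3 at -0.072 (pan-epithelium), Retnlb at -0.58 (acinar), -0.025 (pan-epithelium) and -0.32 (without Model 1 and 3), and Ang4 at -0.084 (block), -0.96 (acinar), -0.26 (pan-epithelium), -0.042 (limma) and -0.68 (without Model 1 and 3). In Model_Swim vs Ctrl_Swim they were Muc2 at 0.042 (block) and 0.0054 (pan-epithelium) and Retnlb at -0.13 (block) and -0.0033 to -0.0035 (limma), and in the interaction Zg16 at -0.27 (pan-epithelium). Without single libraries the range crossed 0 for Muc2 in Model vs Ctrl (-0.70 to 0.12), for Muc2 (-0.46 to 0.38), Fcgbp (-0.27 to 0.64), Clca1 (-0.45 to 0.57), Retnlb (-0.24 to 0.52), Ang4 (-0.40 to 0.60) and Agr2 (-0.12 to 0.19) in Model_Swim vs Model, for Muc2 (-0.17 to 0.070), Spink4 (-0.23 to 0.12), Retnlb (-0.29 to 0.46) and Spdef (-0.18 to 0.093) in Model_Swim vs Ctrl_Swim, and for Muc2 (-0.13 to 0.70) in the interaction. The causes were not tested, and with 3 mice in a group the spread between mice, not depth, limits these values.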
